A study of Mus musculus with 6 samples.

Results

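The cytosolic ribosomal proteins were followed across liver RNA of Swiss-Webster mice fed with or without fractions of Boswellia serrata, a tree tapped for the resin called Indian frankincense. Members were the probe sets of an Affymetrix expression array whose only gene symbol in the platform annotation is that of a ribosomal protein of the small (Rps) or large (Rpl) subunit, or is Rpsa, Rplp0, Rplp1 or Rplp2. Kinases of the Rps6k family and pseudogene names were left out. The rule uses gene symbols and no measured change, but the set was chosen with earlier results of these data known. The rule found 100 probe sets of 48 genes, out of 12393 genes with such a probe set on the array, and the probe set with the highest mean signal stood for each gene. Of these genes, 22 encode small subunit and 26 large subunit proteins. The arrays numbered 6: 2 of mice on the control diet, 2 of mice whose food held 1% of fraction 1, made with hexane, for 21 days, and 2 of mice whose food held 1% of fraction 2, made with methanol, for the same time. All 3 groups were of the same stock of mice, and the labels name no difference other than what the diet held. The time of 21 days is given for the fractions only, and none is given for the control diet. The labels do not say whether the 2 samples of a group were separate animals or pools, so every p-value below measures only the spread between these samples.

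A ribosome joins a small subunit, which reads the messenger RNA, to a large subunit, which forms the peptide bond, and each subunit is built of ribosomal RNA and many proteins made in near equal numbers. The messenger RNAs of these proteins are among the most abundant of the liver, and their transcripts begin with a C followed by a run of pyrimidines (C or T in the DNA), the terminal oligopyrimidine tract through which the mTOR pathway is known to control their translation. An array reads the amount of RNA, not its translation.

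The start sites of some members are printed to show this tract, since it is the sequence feature by which these genes are known as a group. Each sequence runs from 15 bases before to 15 bases after the start that RefSeq gives on mouse build GRCm38.p6, with the longest run of C and T in capitals.
Rpl14, chr9:120571502-120571531, plus strand: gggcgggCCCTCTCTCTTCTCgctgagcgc
Rps18, chr17:33955651-33955680, minus strand: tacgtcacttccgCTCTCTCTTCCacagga
Rps6, chr4:86857353-86857382, minus strand: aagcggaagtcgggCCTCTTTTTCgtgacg
Rps10, chr17:27635230-27635259, minus strand: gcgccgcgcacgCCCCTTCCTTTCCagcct
Rpsa, chr9:120127751-120127780, plus strand: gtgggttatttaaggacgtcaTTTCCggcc
Rps27l, chr9:66946071-66946100, plus strand: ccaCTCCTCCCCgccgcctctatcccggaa

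Across the members, 42 of 48 had a promoter in the RefSeq table, with 50 promoters in all. A run of at least 6 pyrimidines within 15 bases of the start stood on the sense strand in 54.0% of them (27), against 29.2% of all 32851 promoters. On the opposite strand such a run stood in 6.0% of member promoters (3) and 32.4% of all promoters. In Rpl14, Rps18, Rps6 and Rps10 the printed run, of 10 to 14 bases, spans the start, which is the 16th base printed. In Rpsa the longest run was 5 and lies after the start, and in the first of the 2 promoters of Rps27l a run of 9 lies before it. Over the 300 bases from 250 before to 50 after the start, CCGGAAG, a core that factors of the ETS family bind, was found on either strand in 42.0% of member promoters (21) and 8.86% of all. AAGATGG, a core of the YY1 site, was found in 14.0% (7) against 6.34%, and GGGCGG, a core of the Sp1 site, in 52.0% (26) against 35.7%. These are matches of letters and show no binding.

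The deposited values are linear signals in array units, compared as log2 of signal plus 16. Only probe sets that reached the 40th percentile of an array on 2 or more of the 6 arrays entered the tests, which left 14755. Of the 48 members, 46 passed. The exceptions were Rpl3l, a paralog of Rpl3 best known from muscle, and Rpl39l, a paralog of Rpl39 best known from testis: their signals ranged from 10.9 to 81.8 and from 5.9 to 27.3. The median member signal per array was 9602 to 11089, against 139 to 167 for all probe sets. Over the 6 arrays the median range of a member was 0.45 on the log2 scale, against 0.70 over all 9209 tested genes, and a member's log2 fold change had a median standard error of 0.14, against 0.25 over all tested probe sets. Bright probe sets in general varied as little: the 765 tested probe sets with a mean log2 value over 12 and no ribosomal protein symbol had a median range of 0.48 and a median standard error of 0.15.

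Whole arrays stood apart in ways that the diets do not describe. Control replicate 1 and fraction 2 replicate a were scanned in batch 2 and the other 4 arrays in batch 1, so fraction 1 has no array in batch 2. Control replicate 2 had the highest actin ratio of 3' to 5' control probe sets, which rises as RNA degrades, at 3.87 against 2.13 to 2.64 on the other arrays. Summed signals of 7 hepatocyte markers were 138916 and 157399 in control, 136539 and 121875 with fraction 1, and 116914 and 109573 with fraction 2. In 5 of these 7 markers both fraction 1 arrays were above both fraction 2 arrays. Of all tested probe sets 25.4% were so, and 39.1% of the 765 bright ones with no ribosomal protein symbol. Between the fractions the list thus leaned the same way as the members. Against control both fraction 1 sums were below both control sums, while the median member difference was 0.07. Marker by marker, Alb, Ttr, Apoc3 and Fgb were lower on both fraction 1 arrays than on both control arrays. Cps1 was higher on both, and Apoa1 and Tat overlapped. Of 5 stellate cell markers tested, 3 were lower on both fraction 1 arrays than on both fraction 2 arrays, with sums over 6 markers of 2531 and 2121 against 3182 and 3133. Sums of 8 Kupffer cell and macrophage markers were 7384 and 7998 against 8124 and 8638. Of 5 endothelial markers they were 4113 and 3871 against 4618 and 5076, so both sums were again lower with fraction 1. Single markers were mixed: 3 of the 8 were lower on both fraction 1 arrays and 1, Marco, was higher, and 2 of the 5 were lower. Of all tested probe sets, 21.4% were lower on both fraction 1 arrays. Sums of 8 lymphocyte markers overlapped, at 764.8 and 1266 against 1267 and 1093, and Cd3e, Cd3g, Cd2 and Ltb among them were below the filter. Of 4 erythroid markers on the array, Hba-a1, Epb42 and Slc4a1 were below the filter, at signals of 108.4 or less. Alas2, the fourth, read 793.0 and 723.3 with fraction 1, 2656 and 1502 with fraction 2, and 2244 and 2610 in control. Sums of 6 neutrophil markers were 887.1 and 788.2 with fraction 1 and 686.2 and 596.9 with fraction 2. Among these, S100a8, S100a9 and Camp were below the filter, Ngp and Mpo were higher on both fraction 1 arrays, and Elane overlapped. Sums of 4 cholangiocyte markers overlapped, and Krt7, Epcam and Sox9 among them were below the filter. In a bulk sample fewer cells of a type and less RNA per cell cannot be told apart, and the part of these shifts in the results below was not tested.

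The arrays were first compared member by member. Each member's log2 value was set against its own mean over the 6 arrays. Of the 46 members, 39 and 35 lay above that mean in fraction 1 replicates a and b, and 5 and 12 in fraction 2 replicates a and b. The control arrays differed from each other, with 10 members above their mean in replicate 1 and 28 in replicate 2. Of all tested probe sets, 57.1% lay above their own mean in control replicate 2, while on each remaining array 46.3% to 51.6% did. The highest of the 6 values was in control replicate 2 for 21 members and in a fraction 1 array for 21 others (7 in replicate a, 14 in replicate b), and the lowest was in fraction 2 replicate a for 22. Of all tested probe sets, 30.0% were highest in control replicate 2 and 18.6% lowest in fraction 2 replicate a. By the median member, control replicates 1 and 2 lay at -0.05 and 0.10, the fraction 1 arrays at 0.13 and 0.08, and the fraction 2 arrays at -0.15 and -0.09. Control replicate 2 was thus among the fraction 1 arrays and control replicate 1 nearer the fraction 2 arrays.

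**Figure D1:**
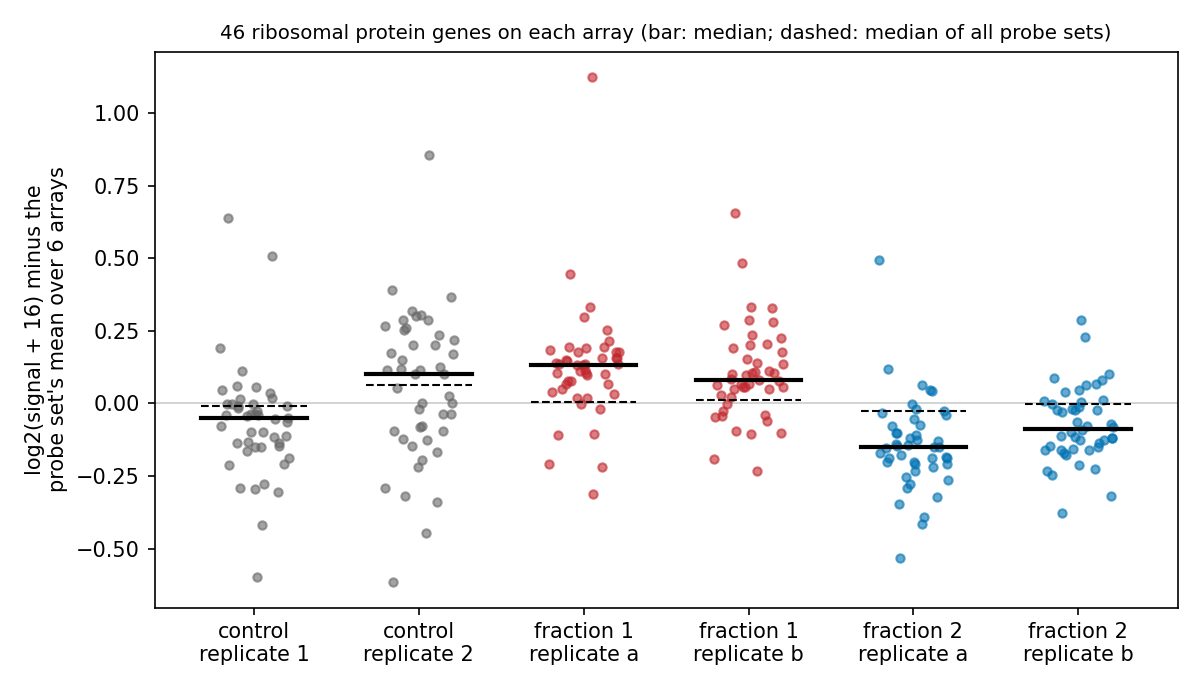
Each point is 1 of 46 ribosomal protein genes on 1 array, drawn as its log2(signal + 16) minus that gene's mean over the 6 arrays (vertical axis, log2 units); solid bars are member medians and dashed bars medians of all tested probe sets. Both fraction 1 arrays have 39 and 35 members above 0 and both fraction 2 arrays 5 and 12, while the control arrays, with 10 and 28, lie apart from each other.

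Between the fractions, 42 of 46 members had a log2 fold change above 0 (fraction 1 over fraction 2), which is 91.3%, against 52.3% of all tested probe sets. The median member difference was 0.23, a fold of 1.18, against 0.02 over all tested probe sets. Both fraction 1 arrays lay above both fraction 2 arrays in 36 members, against 25.4% of all tested probe sets, and below them in 3, against 21.4%. No member passed an adjusted p of 0.05 in the limma fit with Benjamini-Hochberg adjustment over all tested probe sets (lowest 0.324), and of all tested probe sets 0.0136% did. At an unadjusted p under 0.05, limma counted 8 members higher, against 3.86% of all tested probe sets, and 0 lower, against 4.18%. So the differences of single genes did not exceed the spread between samples after adjustment, while most members stood on the same side.

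That position held for both subunits. Of the small subunit genes, 21 of 22 were above 0 and 17 (77.3%) had non-overlapping arrays with fraction 1 higher, with a median of 0.23. Of the large subunit genes tested, 21 of 24 were above 0 and 19 (79.2%) did not overlap in that direction, with a median of 0.23. Of all tested probe sets 25.4% did so, and of the 765 bright ones with no ribosomal protein symbol 39.1%. The members share depth, array and RNA, so these counts are not independent observations.

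**Figure D2:**
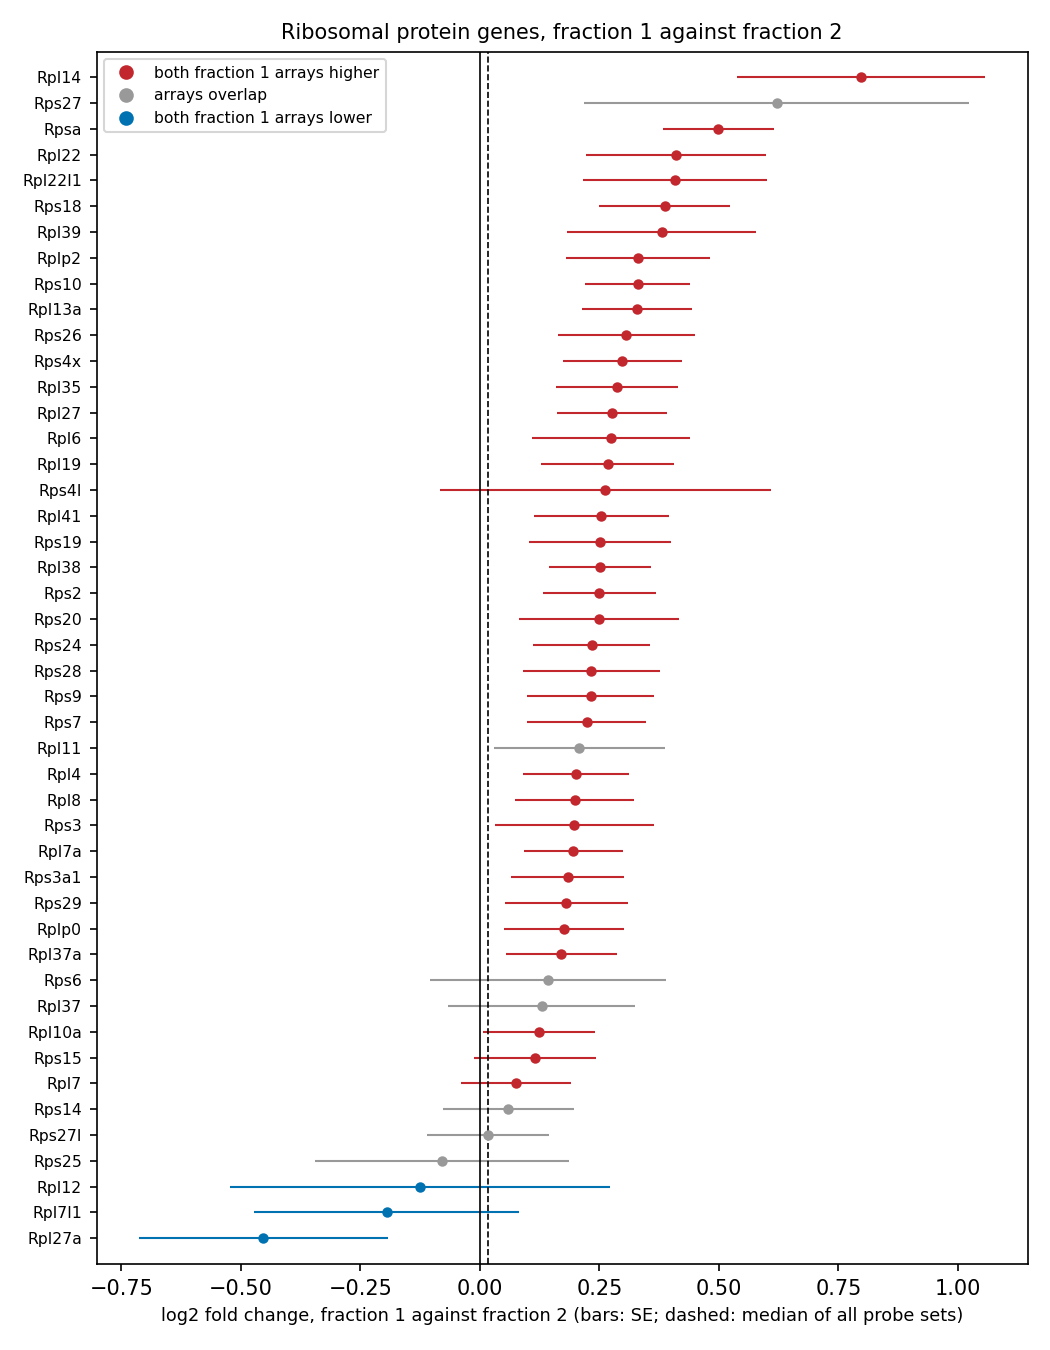
Log2 fold change of fraction 1 against fraction 2 (horizontal axis) for the 46 tested ribosomal protein genes, with bars of 1 standard error from limma; colours give whether the 2 arrays of one fraction lay wholly above or below those of the other. Of the points, 42 lie right of 0, from 0.80 in Rpl14 to -0.45 in Rpl27a at the other end, and the dashed line is the median of all tested probe sets at 0.02.

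Rpsa, the small subunit protein that is also known as a laminin receptor, had the smallest p between the fractions. Its signals were 9222 and 10086 in control, 12557 and 12472 with fraction 1, and 8884 and 8824 with fraction 2. Both fraction 1 arrays were above the other 4, and the 2 arrays of each fraction were close to each other. The log2 fold change was 0.50 with a standard error of 0.12 between the fractions (limma, Benjamini-Hochberg adjusted p = 0.324), 0.38 for fraction 1 against control (adjusted p = 0.218) and -0.12 for fraction 2 against control (adjusted p = 0.834).

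Rps18, a small subunit protein often used as a reference gene in quantitative PCR, had signals of 15251 and 18718 in control, 16984 and 16477 with fraction 1, and 13852 and 11811 with fraction 2. The fraction 2 arrays were the lowest of the 6, and the fraction 1 arrays lay between the 2 control arrays. Its log2 fold change was 0.39 between the fractions and -0.40 for fraction 2 against control (limma adjusted p = 0.538 and 0.618). Another of its probe sets, with signals of 11581 and 9633 in control and 13343 and 13845 with fraction 2, read 0.36 when fraction 2 was set against control, and 0.16 between the fractions, so the sign against control depends on the probe set. Rps4x, a small subunit protein encoded on the X chromosome, had signals of 11589 and 13760 in control, 14867 and 13799 with fraction 1, and 11550 and 11748 with fraction 2. Its fraction 1 arrays were the highest of the 6, and its log2 fold change between the fractions was 0.30 with a standard error of 0.12.

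Rps6, the protein that the S6 kinases phosphorylate, was read here by a dim probe set. Its signals were 174.0 and 138.7 in control, 249.6 and 211.6 with fraction 1, and 184.4 and 231.5 with fraction 2. The fractions overlapped, at a log2 fold change of 0.14 with a standard error of 0.25, which was -0.0096 without fraction 2 replicate a. Against control its log2 values were 0.52 for fraction 1 and 0.38 for fraction 2 (limma adjusted p = 0.446 and 0.793). The brightest probe set that carries the Rps6 symbol beside others read -0.10 and -0.35 against control, the opposite sign.

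Among large subunit proteins, Rpl13a, another reference gene of quantitative PCR and a part of an inhibitor of translation in inflammation, had signals of 10379 and 10919 in control, 12672 and 13109 with fraction 1, and 9860 and 10669 with fraction 2. Both fraction 1 arrays were above the other 4. The log2 fold change was 0.33 between the fractions and 0.28 for fraction 1 against control, both with a standard error of 0.11 (limma adjusted p = 0.532 and 0.374). Against control, fraction 2 gave -0.05, and 0.08 with quantile normalization.

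Rpl19, also used as a reference gene, had signals of 10201 and 12854 in control, 12642 and 11622 with fraction 1, and 10115 and 10021 with fraction 2. Its log2 fold change between the fractions was 0.27 with a standard error of 0.14. Rpl11, which binds the 5S ribosomal RNA and Mdm2, the inhibitor of p53, had signals of 9851 and 13303 in control, 11505 and 9608 with fraction 1, and 10024 and 8265 with fraction 2. Its fractions overlapped, at 0.21 with a standard error of 0.18.

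The stalk of the large subunit, which recruits translation factors, was represented by Rplp0 and Rplp2. Rplp0 had signals of 9871 and 8486 in control, 10812 and 10986 with fraction 1, and 9862 and 9440 with fraction 2. Rplp2 had signals of 12145 and 16100 in control, 15623 and 15201 with fraction 1, and 11498 and 13051 with fraction 2. In both genes the 2 fraction 1 arrays were above the 2 fraction 2 arrays, with log2 fold changes of 0.18 (standard error 0.13) and 0.33 (standard error 0.15).

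**Figure D3:**
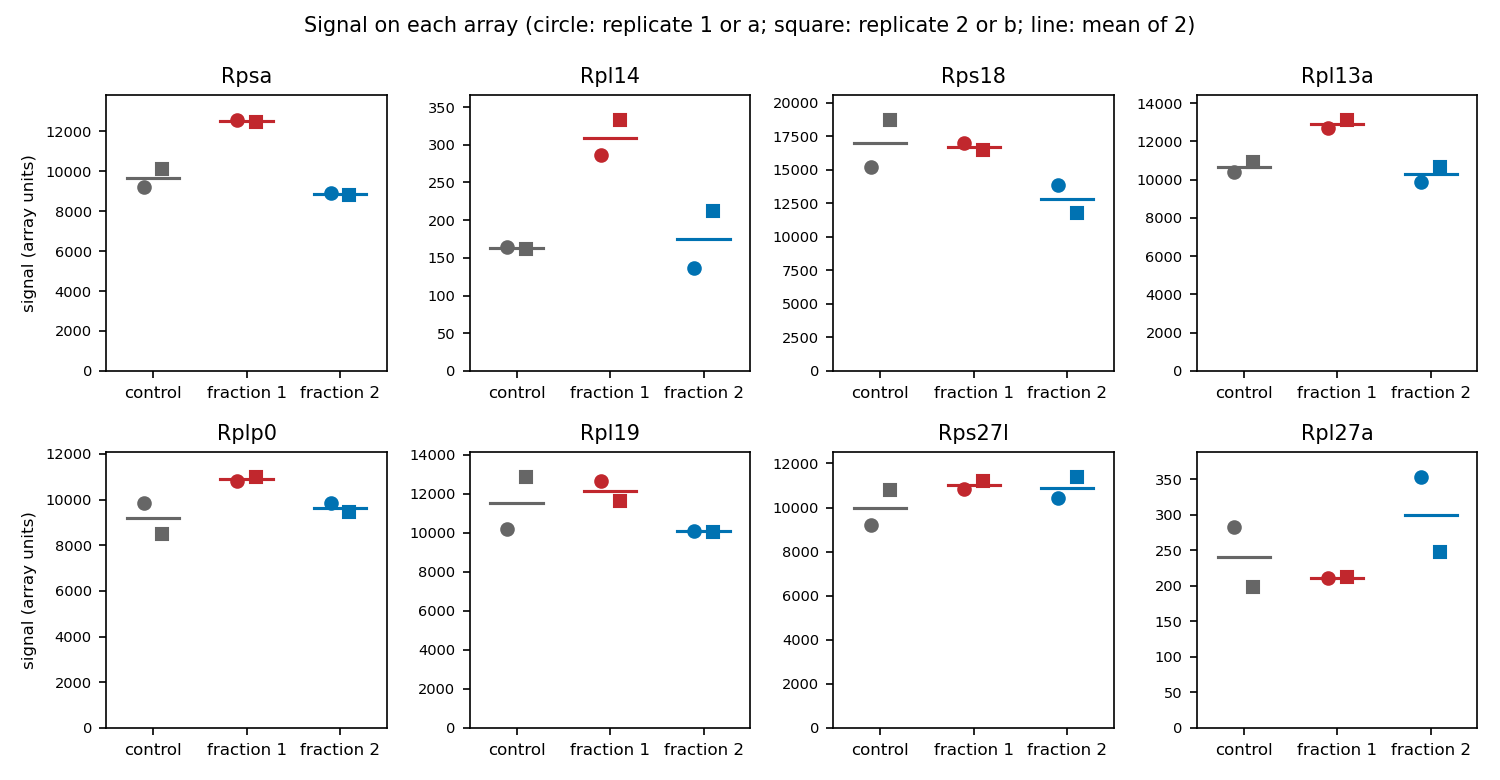
Deposited signal in array units (vertical axis from 0) on each array for 8 ribosomal protein genes; circles and squares are the 2 replicates of control, fraction 1 and fraction 2, and lines are the means of 2. In Rpsa and Rpl13a both fraction 1 points lie above the other 4, in Rps18 the fraction 2 points are lowest, and in Rps27l the fractions overlap.

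The paralogs, copies of ribosomal protein genes that can replace the parent protein in some tissues, gave a mixed picture. Rpl22 had signals of 2156 and 2599 in control, 3176 and 3354 with fraction 1, and 2129 and 2823 with fraction 2. Its paralog Rpl22l1 had signals of 3554 and 3302 in control, 3712 and 5121 with fraction 1, and 2985 and 3607 with fraction 2. Both had a log2 fold change of 0.41 between the fractions, with a standard error of 0.19 in each, and arrays that did not overlap, but a second probe set of Rpl22 gave -0.10.

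Rps27l, a paralog of Rps27 known as a target of p53, had signals of 9188 and 10793 in control, 10842 and 11193 with fraction 1, and 10413 and 11381 with fraction 2. The fractions overlapped, at 0.02 with a standard error of 0.13, and with quantile normalization the value was -0.13. Rps27 had signals of 294.9 and 364.3 in control, 889.2 and 337.3 with fraction 1, and 295.5 and 418.2 with fraction 2. Its log2 value of 0.62 between the fractions rests on fraction 1 replicate a, without which it was -0.06.

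Rps4l had signals of 213.4 and 487.2 in control, 242.8 and 278.2 with fraction 1, and 196.2 and 233.3 with fraction 2. Its control arrays differed more than 2-fold, and its log2 values ranged from 0.26 between the fractions (-0.08 with scan batch as a block) to -0.56 for fraction 2 against control (0.0038 without control replicate 2). Rpl7l1, a paralog of Rpl7, had signals of 747.2 and 407.9 in control, 444.4 and 498.8 with fraction 1, and 536.4 and 546.1 with fraction 2. It was 1 of 3 members whose fraction 1 arrays both lay below the fraction 2 arrays, at a log2 value of -0.19, which was 0.01 with scan batch as a block. Rpl3, Rpl5, Rpl10, Rpl10l, Rpl32 and Rplp1 had no probe set with a single symbol under the rule and were not analysed here.

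The members that stood against the rest were all dim. In all 34 members with a mean log2 value over 12, a limit set after the values were seen, the log2 fold change between the fractions was above 0, and in 31 the arrays did not overlap with fraction 1 higher. Bright probe sets in general leaned the same way, though less: of the 765 tested probe sets over 12 with no ribosomal protein symbol, 63.1% were above 0 and 39.1% had both fraction 1 arrays higher. Of the 12 dimmer members, 8 were above 0. Both fraction 1 arrays were higher in 5 of the 12, against 25.4% of all tested probe sets. Both were lower in 3 of the 12, against 21.4%, so wholly lower arrays were about as common among dim members as among all tested probe sets.

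For 8 of those 12 dim members, the array also holds a tested probe set that carries the gene's symbol beside others, which the rule leaves out because its signal cannot be given to 1 gene. The brightest such probe set had a mean log2 value between 13.18 and 14.21. In each of the 8 it was above 0 between the fractions, with both fraction 1 arrays higher. Of the 765 bright probe sets with no ribosomal protein symbol, 39.1% had both fraction 1 arrays higher.

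Rpl27a, at -0.45 with signals of 210.5 and 213.2 for fraction 1 and 353.3 and 247.3 for fraction 2, read 0.16 on that probe set. Rpl12, which lies at the base of the stalk, read -0.13 on its own probe set and 0.63 on the shared one, and Rps25 read -0.08 and 0.30. Rpl14, the highest member at 0.80, read 0.37 on its shared probe set, so the extremes in both directions came from dim probe sets.

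Rpl14 itself had signals of 165.0 and 161.7 in control, 285.9 and 332.8 with fraction 1, and 137.0 and 211.9 with fraction 2. Both fraction 1 arrays were above the other 4, and its log2 fold change against control was 0.86 with a standard error of 0.26 (limma adjusted p = 0.212). On its shared probe set fraction 1 against control read 0.06. Rpl39, at the exit tunnel for the new peptide, had signals of 519.2 and 614.4 in control, 589.2 and 531.9 with fraction 1, and 400.4 and 454.1 with fraction 2. Its log2 values were 0.38 between the fractions and -0.39 for fraction 2 against control, and its shared probe set read 0.08 and 0.32.

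Where a member had several tested probe sets of its own, they mostly stood on one side between the fractions. Of 19 such genes, 14 had every probe set above 0 and 1, Rpl7l1, had every one below. For Rpl13a the 4 probe sets read from 0.24 to 0.33, for Rpl35, which has 6, from 0.21 to 0.46, and for Rps10, which has 5, from 0.22 to 0.65. Against control the probe sets of a gene were of 1 sign in 11 genes for fraction 1 and in 10 for fraction 2. Over all 87 tested probe sets of members, 78 were above 0 between the fractions. In 61 (70.1%, against 25.4% of all tested probe sets) both fraction 1 arrays were higher.

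**Figure D4:**
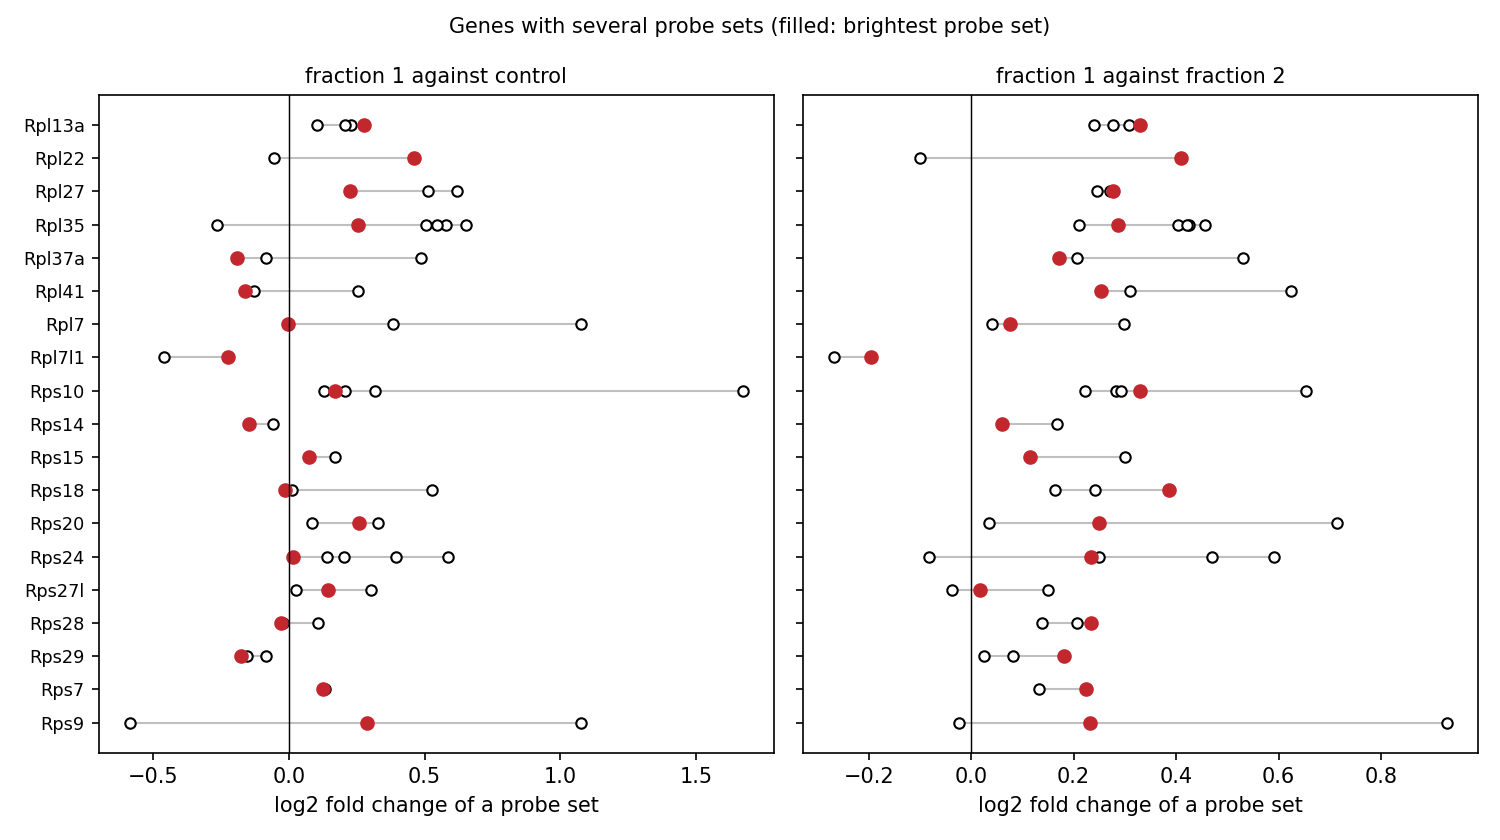
Log2 fold change (horizontal axes) of every tested probe set of the 19 ribosomal protein genes that have more than 1, with the brightest filled, for fraction 1 against control and fraction 1 against fraction 2. Between the fractions the points of 14 genes all lie above 0, while against control the points of 11 genes share a sign.

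Against control, fraction 1 gave a smaller shift. The median member difference was 0.07, with 29 of 46 members above 0 (63.0%), against 47.2% of all tested probe sets. Both fraction 1 arrays lay above both control arrays in 19 members, against 18.8% of all tested probe sets, and below in 2, against 22.1%. Among the 765 bright probe sets with no ribosomal protein symbol, 42.6% were above 0 and 22.6% wholly higher. In the limma fit with Benjamini-Hochberg adjustment 0 members passed 0.05 (lowest adjusted p 0.199), and 0.712% of all tested probe sets did. At an unadjusted p under 0.05 there were 6 members higher, against 5.92% of all tested probe sets, and 0 lower, against 6.48%.

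This comparison rests on the choice of control array. Without control replicate 2, which has the high actin ratio, 39 members were above 0 with a median of 0.15, and both fraction 1 arrays lay above the remaining one in 34, where 40.2% of all tested probe sets did. Without control replicate 1, which is the same set of arrays as scan batch 1 for these groups, 23 were above 0 with a median of 0.01. Quantile normalization gave 35 of 46 (76.1%) and centring on array medians 34 (73.9%).

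The members at the upper end for fraction 1 against control were Rpl14 at 0.86, Rps27 at 0.72, Rpl37 at 0.66 and Rps6 at 0.52, all from probe sets with a mean log2 value under 12. The brightest probe sets that carry the Rpl14 and Rps27 symbols beside others read 0.06 and 0.25. Rpl37, a zinc finger protein of the large subunit, had signals of 1709 and 2264 in control, 2964 and 3268 with fraction 1, and 2557 and 3165 with fraction 2. All 4 arrays of the fractions were above both control arrays, with log2 fold changes of 0.66 (limma adjusted p = 0.199) and 0.53 (adjusted p = 0.655) and a standard error of 0.19. The brightest probe set that carries the Rpl37 symbol beside others read 0.07 and -0.05 in these comparisons. At the lower end stood Rps4l at -0.30, Rpl7l1 at -0.22, Rpl37a at -0.19 and Rps25 at -0.18. Of these, Rps4l, Rpl7l1 and Rps25 turned above 0 without 1 array, and Rpl37a read 0.07 as the mean of its probe sets.

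Fraction 2 against control gave a median member difference of -0.11, with 14 of 46 members above 0 (30.4%), against 44.6% of all tested probe sets. With quantile normalization or centring on array medians, 23 of 46 were above 0 and the median was 0.00 and 0.01, so the direction of the median rests on the scaling. Centring moved the median of all tested probe sets from -0.04 to 0.07 and their share above 0 to 59.6%. Both fraction 2 arrays lay below both control arrays in 18 members, against 20.4% of all tested probe sets, and above in 2, against 14.8%. The members' shares, 30.4% above 0 and 39.1% wholly lower, were near those of the 765 bright probe sets with no ribosomal protein symbol, of which 30.3% were above 0 and 39.7% wholly lower, with a median of -0.12. In the limma fit with Benjamini-Hochberg adjustment 0 members passed 0.05 (lowest adjusted p 0.595), and 0.108% of all tested probe sets did. At an unadjusted p under 0.05 there were 5 lower, against 3.56% of all tested probe sets, and 1 higher, Rpl37, against 3.39%.

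Both scan batches allow fraction 2 to be set against control, each with a single array against a single array. In batch 1, 29 of 46 members were below 0 with a median of -0.21, where 55.3% of all tested probe sets were below 0. In batch 2, 34 were below 0 with a median of -0.08, where 53.0% of all were. Members with fraction 2 wholly below control numbered 29 without control replicate 1, where 45.6% of all tested probe sets did so, and 29 without fraction 2 replicate b, where 36.9% did. Without fraction 2 replicate b, 7 members were above 0.

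Rpl41, the smallest ribosomal protein, had signals of 18446 and 24241 in control, 19870 and 17949 with fraction 1, and 16072 and 15596 with fraction 2. Its fraction 2 arrays were the lowest of the 6, at a log2 fold change of -0.42 against control with a standard error of 0.14 (limma adjusted p = 0.616). The lowest member was Rps4l at -0.56, followed by Rpl41, Rps18 at -0.40 and Rpl39 at -0.39. At the upper end were Rpl37 at 0.53, Rps6 at 0.38, Rpl27a at 0.30 and Rps27l at 0.13. The fractions share the same control arrays, so their values against control are given side by side and are not independent.

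The difference between the fractions kept its direction under the other settings tried, though some of these could not change it. Dropping the variance trend or a control array, fitting only the groups compared, and blocking by replicate letter leave the difference between the fraction means as it was. Moving the filter only adds or drops members, and scan batch 1 alone gives the same differences as leaving out fraction 2 replicate a. All these settings are counted among the 24 alternatives. Over 24 alternatives the share of members above 0 ran from 84.8% to 95.5% and the median from 0.11 to 0.27, with 0 members passing an adjusted p of 0.05 in limma and 2 to 20 at an unadjusted p under 0.05. The 95.5% came from the filter at the 60th percentile. The unadjusted counts are given without the share of all tested probe sets in the same fits, so they are not read as a result. In scan batch 1 alone, with fraction 2 replicate b as its only fraction 2 array, 39 of 46 were above 0 and the median was 0.21. Quantile normalization gave 39 of 46 with a median of 0.11, with 25 members wholly higher where 23.4% of all tested probe sets were. Centring on array medians gave 39 of 46 with a median of 0.15, with 27 wholly higher where 18.0% of all were, while the share of all tested probe sets above 0 moved to 42.1%.

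**Figure D5:**
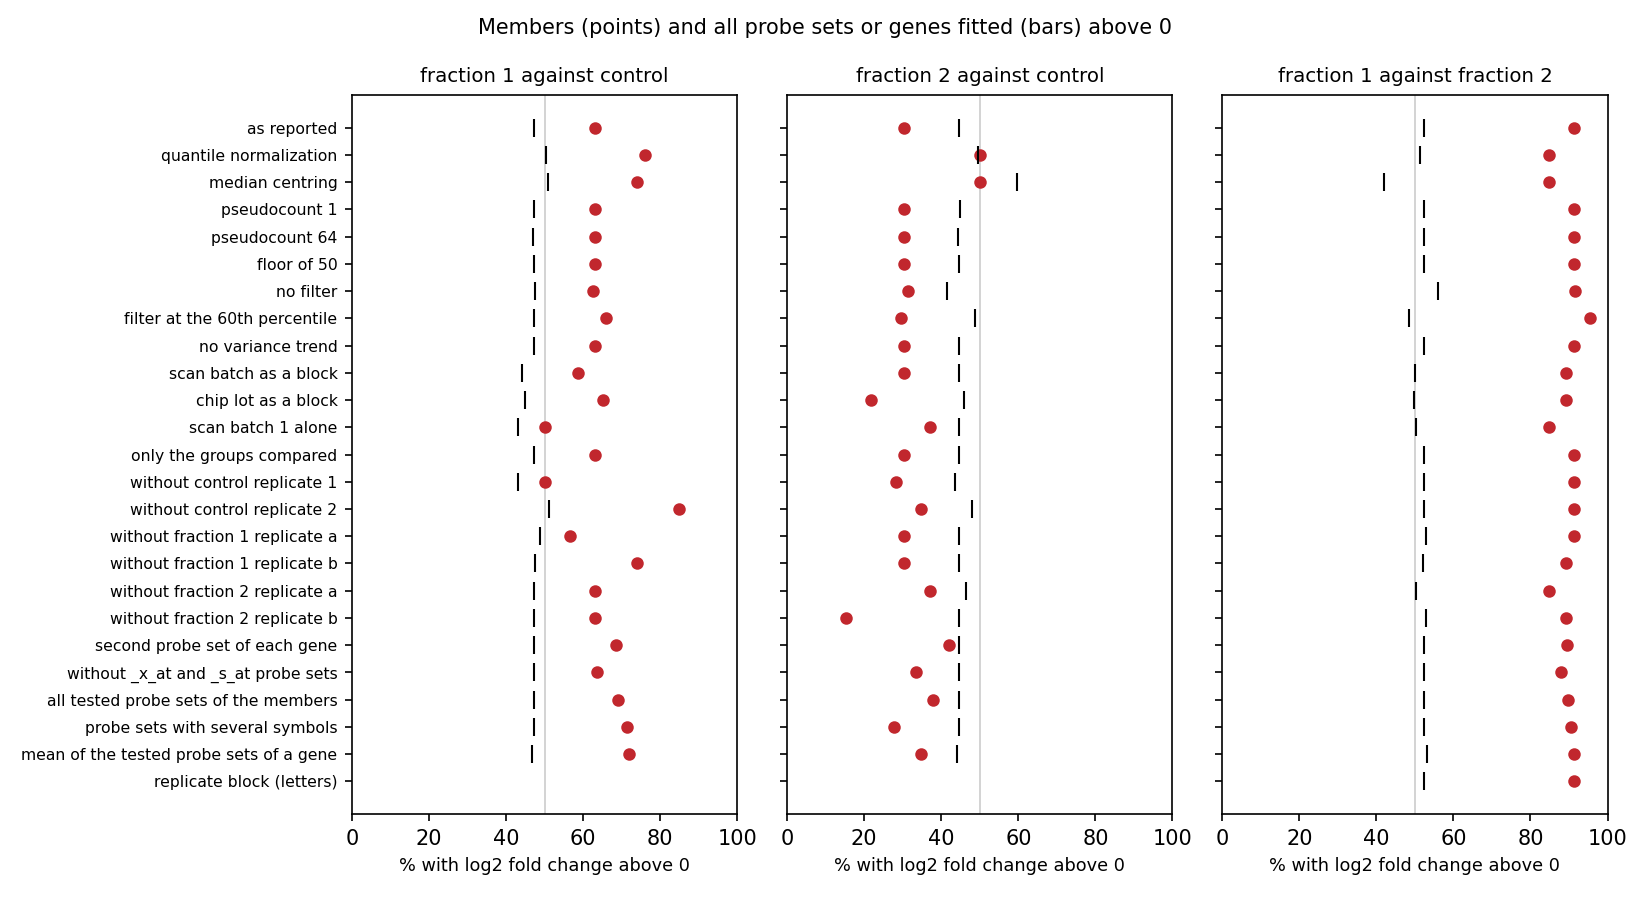
Percentage of ribosomal protein probe sets or genes with a log2 fold change above 0 (points) under each processing alternative, with the share of all probe sets or genes fitted as vertical bars, for the 3 comparisons. Between the fractions the points stay between 84.8% and 95.5%, while for fraction 2 against control quantile normalization and centring bring the members to 50% above 0.

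Genes that work with the ribosome were read from lists of known members, chosen with earlier results of these data known. Fau, whose product is cleaved to the small subunit protein S30, had signals of 9539 and 11333 in control, 12313 and 12033 with fraction 1, and 10993 and 11242 with fraction 2, with a log2 fold change of 0.13 between the fractions and -0.01 with quantile normalization. Of 21 translation factors and other transcripts that start with a pyrimidine tract, among them the non-coding Gas5 and Snhg1, 15 were above 0 between the fractions, with a median of 0.06, and in 6 (28.6%, against 25.4% of all tested probe sets) both fraction 1 arrays were higher. No gene of that list passed an adjusted p of 0.05 in any comparison (limma, with 1 gene at an unadjusted p under 0.05 in each). Tpt1, which encodes a growth-associated protein and has a pyrimidine tract, read 0.31 between the fractions with a standard error of 0.12.

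Of 31 tested ribosome biogenesis genes, 24 were above 0 between the fractions, with a median of 0.17, and in 13 (41.9%, against the same 25.4%) both fraction 1 arrays were higher. None passed the adjusted threshold in limma, with 2 higher at an unadjusted p under 0.05 between the fractions. Bop1, a factor of large subunit processing, read 0.50 and Gnl3, a nucleolar GTPase, 0.54. For fraction 1 against control the list's median was 0.22, with Nhp2, a protein of the H/ACA particles that modify ribosomal RNA, at 0.98 (limma adjusted p = 0.0921).

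RNA polymerase I and its factors had 6 of 12 genes above 0 between the fractions, with a median of 0.01. Of 74 mitochondrial ribosomal proteins, which build a separate ribosome in that organelle, 50 were above 0 with a median of 0.09, and in 21 (28.4%, against 25.4% of all) both fraction 1 arrays were higher. No gene of either list passed the adjusted threshold in limma, and 1 gene of each was higher at an unadjusted p under 0.05 between the fractions.

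In the list of the mTOR pathway and the kinases of ribosomal protein S6, 7 of 18 genes were above 0 between the fractions, with a median of -0.12. Ddit4, an inhibitor of mTOR complex 1 that responds to stress and glucocorticoids, was the only gene of all these lists past the threshold. Its signals were 142.2 and 179.0 in control, 627.1 and 2204 with fraction 1, and 189.1 and 212.1 with fraction 2. It rose in fraction 1 against control by a log2 fold change of 2.77 with a standard error of 0.48 (limma, Benjamini-Hochberg adjusted p = 0.04998), just inside the threshold. That call was lost in 15 of 18 alternatives, over which the adjusted p ran from 0.0036 to 0.189 and the log2 value from 1.87 without fraction 1 replicate b to 3.66 without replicate a. Rps6kb2, the second S6 kinase, read 0.93 between the fractions with a standard error of 0.25 (limma adjusted p = 0.43).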

How the data were processed

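Liver RNA of 6 samples was read on 1-colour arrays. The authors deposited 1 linear signal intensity per probe set and array. How these signals were summarised is not given in the sources used here. The trimmed mean per array was equal within rounding (500.2 to 500.3), so the values were used as deposited. Scan batch and chip lot (other) came from the deposited experiment files. Symbols came from the platform annotation: 20380 probe sets had 1 symbol, 691 several and 1555 none, and 64 control probe sets were left out. One limma model (version 3.58.1 under R 4.3.3, with lmFit and a variance trend in eBayes) covered all 6 arrays, two-sided, with Benjamini-Hochberg adjustment over 14755 probe sets. With 3 residual degrees of freedom, precision is limited by how few arrays there are. The procedure was tested on simulated data with shifts larger than any member difference seen here. That test therefore does not show how well differences of this size are recovered. Genes named are members past the threshold, the 4 highest and 4 lowest per comparison, a set chosen by known role, and up to 2 genes of each list in each comparison. The members and lists were chosen with earlier results of these data known. Plots used matplotlib 3.10.9 under Python 3.11.15.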

Additional observations from a re-analysis of the deposited data

How the results depend on the processing

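No member passed an adjusted p of 0.05 in any of the settings that keep 1 probe set a gene. Of 41 named values of members, 26 kept their sign under every alternative run and 15 did not; none of these 41 passed the threshold under any, and the causes were not tested. For fraction 1 against control the member median was 0.11 with quantile normalization, 0.031 with scan batch as a block and 0.014 in batch 1 alone. It was 0.13 on second probe sets, 0.14 on gene means, and 0.014 to 0.15 without 1 array. Wholly higher members numbered 19 to 34 without 1 array (41.3% to 73.9%, against 27.7% to 40.2% of all tested probe sets), where fewer arrays must separate. Chosen after seeing the data, all 87 tested probe sets of the members gave 0.14 with 1 call. The 94 tested probe sets with several symbols gave 0.17 with 1 call, where 0.712% of all tested probe sets were called. For fraction 2 against control the median was 0.00054 with quantile normalization, 0.0055 with median centring, -0.21 in batch 1 alone, -0.051 on second probe sets and -0.21 to -0.051 without 1 array. Members above 0 numbered 23 with either scaling and 7 to 17 without 1 array, and members wholly lower 4 (quantile, 8.70% against 17.7% of all probe sets), 11 (median centring, 23.9% against 13.2%), 29 (batch 1 alone, 63.0% against 55.3%) and 20 to 29 without 1 array (43.5% to 63.0%, against 32.3% to 45.6%). Between the fractions the median was 0.11 (quantile), 0.15 (median centring), 0.18 (scan batch block) and 0.15 (chip lot block). Signs that turned for fraction 1 against control were Rpl7l1 (0.20 in batch 1 alone, -0.65 to 0.20 without 1 array), Rpl37a (0.069 as gene mean), Rpl22 (-0.055 on its second probe set), Rps4l (-0.87 to 0.27 without 1 array) and Rps25 (-0.41 to 0.044). For fraction 2 against control they were Rpl13a (0.084 quantile, 0.062 median centring, -0.11 to 0.0032 without 1 array) and Rps4l (-1.13 to 0.0038). Between the fractions they were Rpl22 (-0.10 on its second probe set), Rpl7l1 (0.011 and 0.11 with scan batch and chip lot as a block), Rpl12 (0.22 and 0.33), Rps4l (-0.079 and -0.12), Rps27l (-0.073 and -0.074 with these blocks, -0.068 median centring, -0.13 quantile, -0.047 in batch 1 alone, -0.047 to 0.081 without 1 array), Rps6 (-0.0096 in batch 1 alone, -0.0096 to 0.29 without 1 array), Rps27 (-0.058 to 1.30) and Rps25 (-0.31 to 0.15), and, outside the members, Fau (-0.011 quantile). With the replicate letters as a replicate block the fractions gave 0 member calls and 75 calls over all probe sets. The same arrays without the block gave 0 member calls and 2 calls over all probe sets. The deviations of same-lettered samples correlated at 0.03 over all probe sets, and the labels do not say that a letter pairs samples; the b arrays also share chip lot 3 and scan batch 1, the a arrays neither. Without 1 array, the lone sample of its group is assumed to vary like the others.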

Other observations

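Of 87 tested member probe sets, 1 passed the adjusted threshold, for fraction 1 against control, where 0.712% of all tested probe sets did. It was singled out after its values were seen. The third probe set of Rpl7, a large subunit protein, had signals of 2584 and 3541 in control, 6278 and 6502 with fraction 1, and 5038 and 5352 with fraction 2. All 4 arrays of the fractions were above both control arrays. For fraction 1 against control its log2 fold change was 1.07 (limma, Benjamini-Hochberg adjusted p = 0.0401). Over 18 alternatives it passed in 8, with adjusted p from 0.0222 to 0.306 and log2 values from 0.85 to 1.30. The other probe sets of Rpl7 read 0.00 and 0.38 in that comparison, so the call is that of a probe set and not of the gene.

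Probe sets that carry a ribosomal protein symbol beside other symbols were left out of the members, because their signal cannot be given to 1 gene. There were 94 tested ones, which bring 27 further ribosomal protein symbols. Between the fractions 85 of the 94 were above 0, with a median of 0.25. In 72 (76.6%, against 25.4% of all tested probe sets) both fraction 1 arrays were higher. Some of them match the same transcripts as the members, so they are not separate evidence.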
